A study of Mus musculus with 6 samples.

Results

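The genes for the building blocks of microtubules were followed in fat of mice with and without cavin-3. The list holds 10 tubulin genes, 5 of the alpha and 5 of the beta family, and Tuba1a was selected on its KO to WT fold in the study's table of altered genes. For each gene the probe set annotated with that symbol alone and with the highest mean log2 signal over the 6 arrays was used. Of the 10 genes, 8 had such a probe set, out of 19937 genes in all. Tuba1b and Tuba1c were measured only by probe sets that they share with each other or with Tuba1a, and these are described by their probe set numbers. Because Tuba1a was chosen by its difference on these same arrays, its difference is given as a description with no test.

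Alpha- and beta-tubulin join into heterodimers, and the dimers polymerize into microtubules, the tracks along which vesicles and organelles travel. Mammals carry a gene for each of several isotypes, which are alike in the globular core and differ mainly in the acidic tail at the C-terminus. In fat, microtubules take part in moving vesicles with glucose transporters and are rearranged when a preadipocyte rounds up and fills with lipid. Cavin-3 is a coat protein of caveolae that has been tied to their traffic on microtubules in cultured cells.

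There were 3 WT and 3 cavin-3 KO mice on a C57BL/6 background, each 10 weeks old, kept on chow and fasted for 6 hours before the tissue was taken. In the KO the whole cavin-3 gene was exchanged for a lacZ/neo cassette in every cell, and the line comes from 1 clone of targeted ES cells. RNA of each mouse was hybridised to 1 Mouse Gene 1.0 ST array, on which the short probes of a transcript are summarised as a probe set. All values below are log2 of the deposited intensity, a fold is 2 to the power of a log2 difference, and a difference is KO minus WT. The depot of the fat was not given in the sources used here.

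The adipocyte markers were high and even: the mean of 9 genes, among them Adipoq and Plin1, lay between 12.18 and 12.35 on the 6 arrays. Cavin-3 itself, the targeted gene, was at 10.05, 10.90 and 10.45 in WT replicates 1 to 3 and at 6.79, 6.78 and 7.12 in KO replicates 1 to 3. WT replicate 2 and KO replicate 3 stood apart from the other arrays. Xist, which is transcribed from the inactive X of females, had a log2 signal of 11.14 and 11.34 there and at most 6.30 elsewhere, while the Y-linked gene Uty was at 3.36 and 3.21 against at least 7.89. The methods state that male animals were analysed. For each tubulin gene the difference over the 4 other arrays is therefore given as well.

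Tuba1a, an alpha isotype best known from growing neurons, had the highest signal of the 8 genes and the most negative difference between KO and WT. Its log2 signal was 10.97, 11.69 and 11.15 in WT replicates 1, 2 and 3 and 11.08, 11.14 and 9.91 in KO replicates 1, 2 and 3. The array of KO replicate 3 was the lowest and that of WT replicate 2 the highest, while the 4 others lay within 0.18 of each other, and the groups overlapped. The WT mean was 11.27 ± 0.37 (SD, n = 3) and the KO mean 10.71 ± 0.69 (SD, n = 3), a difference of -0.56, or 0.679-fold. Without KO replicate 3 the fold was 0.896, without WT replicate 2 it was 0.785, and over the 4 arrays with a low Xist signal the log2 difference was 0.05. In KO replicate 3 Tuba1a was 1.06 below the next lowest array. A gap of that size or more below every other array was found in that array for 2 of 19937 genes, Tuba1a and Plet1, a count made after the values had been seen. In bulk tissue, fewer cells of a type and less RNA per cell cannot be told apart.

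The promoters of the alpha isotypes that the results turn on are shown to let their sequences be compared. Each is the run of 100 bases just before the annotated transcript start on the strand of the gene, from the mouse RefSeq table (GRCm38.p6), with matches to TATAA (read on this strand), CCAAT and GGGCGG (either strand) in capitals. Of the 10 listed genes, 8 have an entry there, and Tubb2b and Tubb6 do not.
Tuba1a, chr15:98953502-98953601, minus strand: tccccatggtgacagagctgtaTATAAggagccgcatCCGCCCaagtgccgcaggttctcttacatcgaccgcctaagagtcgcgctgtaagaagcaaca
Tuba1b, chr15:98934391-98934490, minus strand: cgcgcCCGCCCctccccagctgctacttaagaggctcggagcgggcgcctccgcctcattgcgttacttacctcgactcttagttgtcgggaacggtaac
Tuba4a, chr1:75219295-75219394, minus strand: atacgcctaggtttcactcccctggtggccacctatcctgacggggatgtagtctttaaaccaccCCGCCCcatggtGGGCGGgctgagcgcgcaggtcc
Tuba8, chr6:121210634-121210733, plus strand: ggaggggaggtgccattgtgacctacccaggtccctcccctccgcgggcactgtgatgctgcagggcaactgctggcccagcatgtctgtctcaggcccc
Of these 4 windows, TATAA was found only in that of Tuba1a, beginning 78 bases before the start, and GGGCGG in the windows of Tuba1a, Tuba1b and Tuba4a. Among the listed genes not shown, TATAA was also found in the windows of Tubb2a and Tubb3, beginning 29 and 30 bases before the start. The windows of Tuba1c and Tubb5 held no TATAA. Of 32536 promoter windows of 100 bases, 7.46% hold TATAA, 24.9% GGGCGG and 18.8% CCAAT. The window of Tuba8 holds none of the 3.

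Tuba1b and Tuba1c encode the alpha isotypes that most cells use, and their coding sequences are nearly the same as that of Tuba1a. Probe set 10592058, which the annotation gives to Tuba1b and Tuba1c, had log2 signals of 11.60, 12.12 and 12.00 in WT and 11.92, 12.02 and 11.43 in KO (replicates 1, 2 and 3). KO replicate 3 was again the lowest array, 0.18 below the next, and the groups overlapped. The difference was -0.12 (95% interval -0.61 to 0.37, limma adjusted p = 1.0), and 0.06 without KO replicate 3. The 3 probe sets given to Tuba1a, Tuba1b and Tuba1c together differed by -0.20 (10432398), -0.22 (10587780) and -0.40 (10426650), and none passed the test (limma adjusted p = 1.0 for each). All 4 shared probe sets had their lowest signal in KO replicate 3. Tuba1a stood 0.43 to 0.88 below probe set 10592058 on the other 5 arrays and 1.51 below it on that of KO replicate 3, and its distance to 10432398 and 10587780 was also largest there. Above the dimmest of the 4, 10426650, it stood by 3.19 in KO replicate 3 and by 3.21 in WT replicate 1, with 3.68 to 4.46 on the other arrays. A ratio within an array shows an unequal change of the 2 probe sets and not which of them moved.

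**Figure D1:**
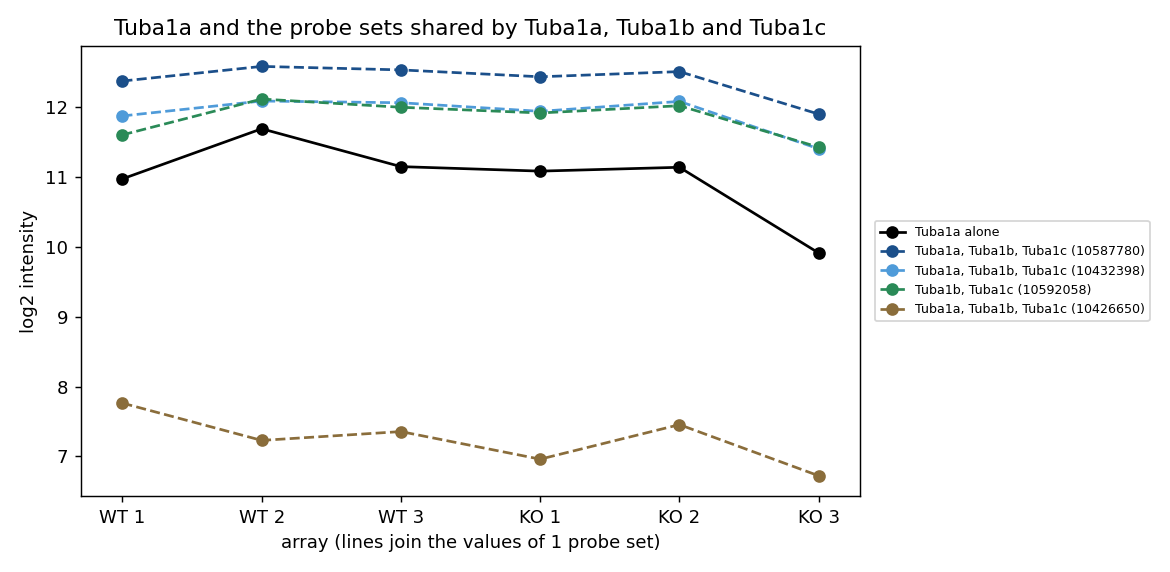
Log2 intensity (vertical axis) on each of the 6 arrays of the Tuba1a probe set (solid line) and of the 4 probe sets shared among Tuba1a, Tuba1b and Tuba1c (dashed lines). Tuba1a was at 9.91 in KO replicate 3 against 10.97 to 11.69 on the others, and each shared probe set was also lowest there.

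Markers of dividing cells, in which tubulin transcripts are abundant, were also lowest in KO replicate 3. The mean of the 11 measured genes was 5.91 there and 6.07 to 6.39 on the other arrays, 9 of the 11 had their lowest signal in that array, and 11 of 11 had a lower mean in KO (median log2 difference -0.24, range -0.39 to -0.08). Of the 11, 3 had an unadjusted p under 0.05, 0 passed the adjusted p and 4 had groups that did not overlap, beside 0.838%, 0.00575% and 4.61% in the whole table. Mki67, a nuclear protein of cycling cells, was at 0.789-fold in KO and Top2a, a topoisomerase, at 0.764-fold (limma adjusted p = 1.0 for both). The list stayed lower over the 4 arrays with a low Xist signal (11 of 11, median -0.19), where Tuba1a did not. Its mean was highest in WT replicate 1, at 6.39, where 8 of the 11 genes peaked and Tuba1a was at 10.97. WT replicate 2, the highest array for Tuba1a, had a list mean of 6.22. The part of dividing cells in the Tuba1a signal was not tested.

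Tuba4a and Tuba8, alpha isotypes that are prominent in muscle, were the pair of genes with a higher mean in KO, and neither difference passed the test. Tuba8 had signals of 5.97, 7.52 and 6.29 in WT and 6.17, 6.42 and 7.93 in KO. It was high in WT replicate 2 and KO replicate 3 alone, the groups overlapped, and its range over the arrays, 1.96, was larger than that of 97.7% of all genes. The difference was 0.25 (95% interval -1.15 to 1.64, limma adjusted p = 1.0). Its sign turned with single arrays, from -0.30 without KO replicate 3 and -0.06 without WT replicate 1 to 0.71 without WT replicate 2. Tuba4a moved less, with 7.97, 8.30 and 7.78 in WT and 7.95, 8.16 and 8.34 in KO. Its highest values were in the same 2 arrays, and its difference was 0.13 (-0.27 to 0.54, limma adjusted p = 1.0), or 0.18 over the 4 arrays with a low Xist signal.

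The 11 skeletal muscle genes of the marker lists had their highest signals in the same 2 arrays. Their mean was 8.58 in WT replicate 2 and 8.63 in KO replicate 3, against 5.63 to 6.63 on the 4 other arrays, and each of the 11 genes was highest in one of the 2. The fast myosin gene Myh4 was at 8.57 and 8.71 there and at 4.59 to 5.66 elsewhere, and Pvalb, a calcium buffer of fast fibres, at 9.02 and 8.49 against 4.71 to 5.31. The order on the 4 other arrays was not shared. WT replicate 1 had the highest muscle mean of them, 6.63, and the lowest Tuba8 signal. Over these 4 arrays the range of Tuba8 was 0.45, and its difference 0.17. Genes of spermatids, listed because alpha isotypes are also transcribed in the testis, ran the other way: the mean of 5 genes was 5.53 and 5.51 in those 2 arrays and 6.87 to 7.81 elsewhere. The part of muscle or of testis in the Tuba8 signal was not tested.

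Among the beta isotypes, Tubb5, the common form of dividing and resting cells, had the highest signal and Tubb3, the form that marks neurons, the lowest. Tubb5 was at 10.29, 10.90 and 10.59 in WT and 10.42, 10.64 and 10.35 in KO. WT replicate 2 was the highest array and WT replicate 1 the lowest, so that the KO values lay within the range of WT. The difference was -0.12 (95% interval -0.54 to 0.29, limma adjusted p = 1.0), and it was 0.03 without WT replicate 2 and 0.09 over the 4 arrays with a low Xist signal. Tubb3 was at 4.15, 4.28 and 4.45 in WT and 3.95, 4.19 and 4.27 in KO, a level above that of 19.7% of the probe sets. The difference was -0.15 (-0.46 to 0.16, limma adjusted p = 1.0), and -0.23 over the 4 arrays with a low Xist signal. Nerve and Schwann cell markers were low as well: the mean of 10 measured genes lay between 4.93 and 5.29, and 3 of them exceeded the median level of all probe sets. Whether so dim a probe set lay above background could not be judged, since the scanner files were not used here.

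Tubb2a and Tubb2b, a pair of closely related genes, varied in part together. Tubb2a was at 7.94, 8.33 and 7.84 in WT and 7.48, 8.10 and 7.68 in KO, with KO replicate 1 the lowest and WT replicate 2 the highest. It had the most negative difference of the genes tested, 0.823-fold, with a log2 difference of -0.28 (95% interval -0.77 to 0.21, unadjusted p = 0.212, limma adjusted p = 1.0). Over the 4 arrays with a low Xist signal it was -0.10. Tubb2b was at 7.59, 7.51 and 7.08 in WT and 6.52, 8.01 and 6.96 in KO. The KO arrays held both its highest and its lowest value, and they differed by 1.49. The difference was -0.23 (-1.14 to 0.69, limma adjusted p = 1.0), and it came to -0.65 once KO replicate 2 was left out, to 0.09 without KO replicate 1 and to -0.07 over the 4 arrays with a low Xist signal. Probe set 10399419, annotated with Tubb2a, Tubb2b and a Tubb2a pseudogene, was likewise highest in KO replicate 2, at 6.72 against 5.95 to 6.59 elsewhere, and its difference was -0.12.

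The smooth muscle markers ran high and low in some of the same arrays as Tubb2b. The mean of 7 genes was 10.48, 9.20 and 8.33 in WT and 7.78, 10.32 and 8.84 in KO. WT replicate 1 and KO replicate 2 were the highest 2 arrays for this list and for Tubb2b, and KO replicate 1 was the lowest for both. Myh11, the myosin heavy chain of smooth muscle, was at 11.47 and 10.94 in the first 2 and at 8.27 in KO replicate 1. All 7 smooth muscle genes had a lower mean in KO (median -0.36). Of these, Cnn1 and Actg2 were already given as lower in KO in the study's table of altered genes, from these same arrays. Without KO replicate 1 none of the 7 was lower (median 0.21), and Tubb2b also turned. Without WT replicate 1 none of the 7 was lower either (median 0.25), while Tubb2b stayed at -0.13. The epididymis list held 7 genes, of which none exceeded the median level of all probe sets. Its mean was also highest in WT replicate 1 and KO replicate 2, at 5.63 and 5.26 against 4.06 to 4.22. Gene by gene, 3 of the 7 peaked in WT replicate 1, 3 in KO replicate 3, 1 in WT replicate 3 and 0 in KO replicate 2. The urothelium list had its highest mean in WT replicate 2, at 8.30 against 5.90 to 6.67. Tubb2a had its highest signal in that array, and so did Tuba1a, Tubb5 and Tubb6. The part of these tissues in the tubulin signals was not tested. The other lists moved less: the means lay between 8.28 and 8.72 for 11 macrophage genes, 9.20 and 9.63 for 7 endothelial genes, 9.64 and 10.13 for 6 fibroblast genes, 8.34 and 8.96 for 5 mesothelial genes and 6.84 and 7.33 for 4 platelet genes.

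**Figure D2:**
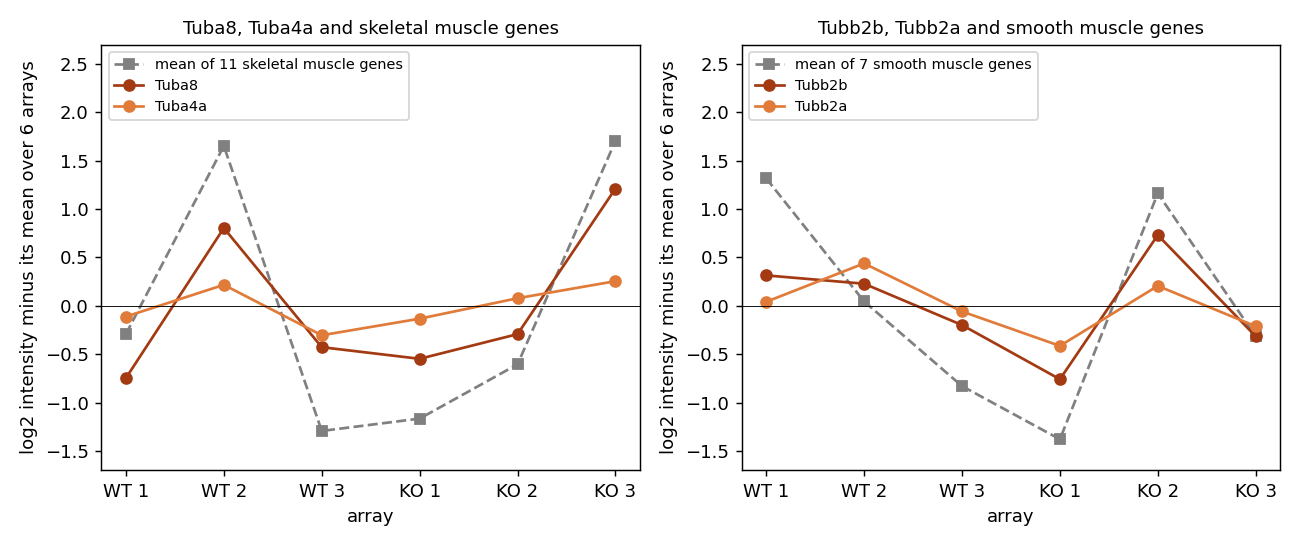
Log2 intensity minus its mean over the 6 arrays for Tuba8, Tuba4a and the mean of 11 skeletal muscle genes (left), and for Tubb2b, Tubb2a and the mean of 7 smooth muscle genes (right), by array. Tuba8 and the skeletal muscle mean were high in WT replicate 2 and KO replicate 3, and Tubb2b and the smooth muscle mean were lowest in KO replicate 1.

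Tubb6, a beta isotype of broad expression that stands apart from the others in sequence, was at 7.95, 8.26 and 7.95 in WT and 7.81, 8.22 and 7.63 in KO. KO replicate 3 was the lowest array and WT replicate 2 the highest, and the groups overlapped. The difference was -0.16 (95% interval -0.59 to 0.27, limma adjusted p = 1.0), -0.03 without KO replicate 3 and 0.07 over the 4 arrays with a low Xist signal. Tubb5, Tubb6 and Tubb2a had the most similar profiles of the 8 genes. After subtraction of each mean, the root mean square difference over the 6 arrays was 0.13 between Tubb5 and Tubb6 and 0.14 between Tubb6 and Tubb2a, and the most unlike pair, Tuba1a and Tuba8, differed by 1.06.

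**Figure D3:**
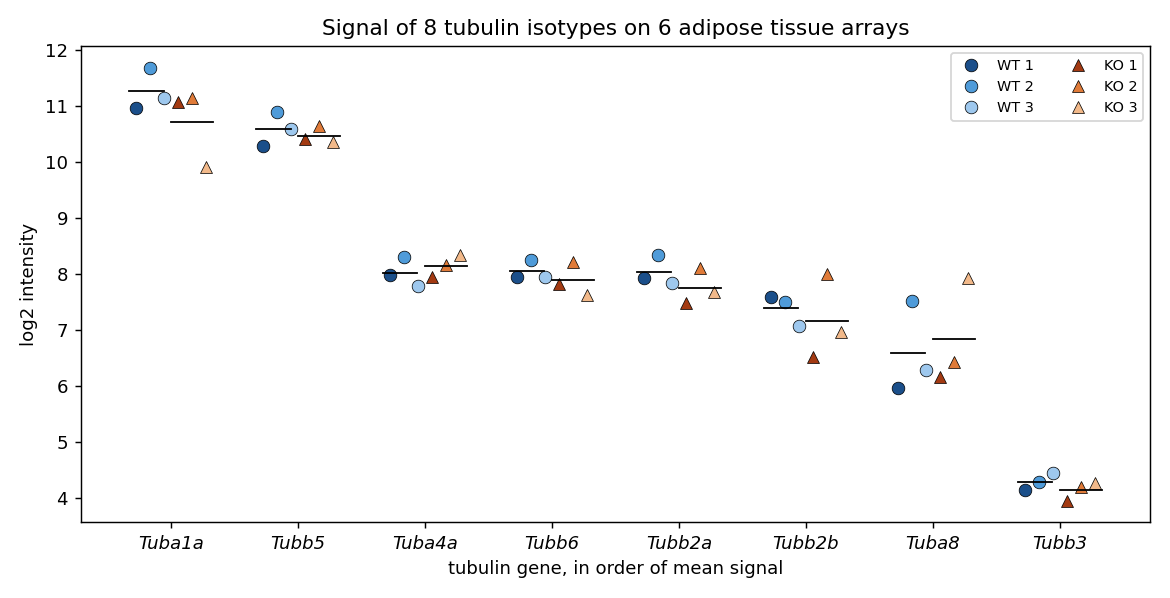
Log2 intensity of the 8 tubulin genes in order of mean signal, with 1 point per array (WT circles, KO triangles) and a line at each group mean. The WT and KO points overlap for each gene, and KO replicate 3 lies apart for Tuba1a at 9.91 and, with WT replicate 2, for Tuba8 at 7.93 and 7.52.

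In order of mean log2 signal over the 6 arrays the genes were Tuba1a (10.99), Tubb5 (10.53), Tuba4a (8.09), Tubb6 (7.97), Tubb2a (7.90), Tubb2b (7.28), Tuba8 (6.72) and Tubb3 (4.21). Probe sets differ in how strongly their probes bind, so this is an order of signals and not of transcript amounts, and it was used by the rule and carries no test. Tubb5 lay above Tuba4a by 2.44 ± 0.27 (SD, n = 6), and Tuba8 above Tubb3 by 2.5 ± 0.77 (SD, n = 6), on 6 of 6 arrays each. Tubb2a exceeded Tubb2b on 6 of 6 arrays, by 0.09 to 0.96. The other neighbours changed places between arrays. Tuba1a was above Tubb5 on 5 of 6 arrays, by 0.46 ± 0.45 (SD, n = 6), with KO replicate 3 as the exception. Tuba4a was above Tubb6, Tubb6 above Tubb2a and Tubb2b above Tuba8 on 4 of 6 arrays each.

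For the comparison of KO with WT, which asks what transcripts in fat change when cavin-3 is lost, 0 of the 7 tubulin genes tested reached the threshold of 0.05 for the limma adjusted p, and 0 had an unadjusted p under 0.05. Over all probe sets 0.00575% passed the adjusted p, and 0.838% of all genes had an unadjusted p under 0.05. Cavin-3, the deleted gene, was at 0.084-fold and passed with a limma adjusted p of 0.041. With so strict an adjustment, a miss does not show that a gene was unchanged. The WT and KO values overlapped for 8 of 8 tubulin genes, Tuba1a included, while 4.61% of all genes had values that did not overlap. Of the 7 genes other than Tuba1a, 5 had a lower mean in KO, with a median log2 difference of -0.15, beside 49.7% of all genes and a median of 0.00085. Over the 4 arrays with a low Xist signal, 3 of the 7 were lower and the median was 0.07. Precision was limited with 3 arrays per group, as it was for all genes. The standard errors of the 7 differences tested ran from 0.13 to 0.58, against a median of 0.12 over all genes. With a term for the 2 arrays with a high Xist signal, that of Tuba8 fell from 0.58 to 0.14. That of Tuba4a fell from 0.17 to 0.11, and those of the other genes tested rose slightly. The 8 genes had a median range over the arrays of 0.738, against 0.375 for all genes. Of the 8 genes, 4 peaked in WT replicate 2, as did 22.1% of all genes, and 3 had their lowest value in KO replicate 1, as did 15.0%.

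**Figure D4:**
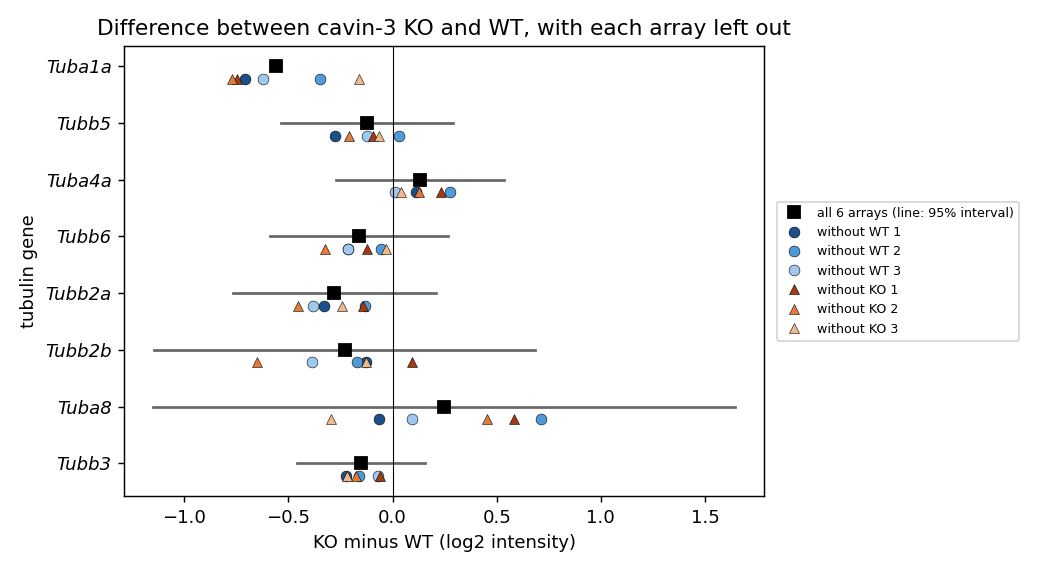
KO minus WT difference in log2 intensity (horizontal axis) of the 8 tubulin genes, with squares for all 6 arrays, 95% intervals from limma for the 7 genes tested and small symbols for the difference without each array. The 7 intervals include 0, and the difference of Tuba1a, drawn without one, went from -0.56 to -0.16 without KO replicate 3.

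Of 10 other tubulin genes, 9 had a probe set of their own, and 0 passed the test (limma adjusted p = 1.0 for each). Tubg1, the gamma-tubulin from which microtubules grow at the centrosome, had the highest signal, with 9.12, 9.74 and 9.21 in WT and 9.25, 9.39 and 9.12 in KO and a difference of -0.10. The gamma-tubulin gene Tubg2 differed by -0.06, Tubd1 and Tube1, of the delta and epsilon forms found at centrioles, by 0.0063 and 0.08, and the beta gene Tubb4a by -0.07. Tubb1, the beta isotype of platelets, had a signal of 5.99 to 6.31 and a difference of -0.00080. Tubal3 differed by -0.23, and Tuba3a and Tuba3b, alpha genes of the testis, by -0.12 and -0.22, with signals of Tuba3b from 3.03 to 4.87. Tubb4b was measured by a pair of probe sets that the annotation also gives to Zfp646. They were at 7.42 and 8.92 in KO replicate 3 against 8.37 to 8.84 and 9.24 to 9.89 on the other arrays, so they too were lowest where Tuba1a was.

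Microtubule genes with other roles were counted in the same fit. Of 105 listed genes in 6 groups, the other tubulins included, 101 were measured, 52 were higher and 49 lower in KO, 0 passed the adjusted p and 1 had an unadjusted p under 0.05, a share close to the 0.838% of all genes. That gene was Katna1, the catalytic subunit of the microtubule-severing enzyme katanin, at 8.19, 8.42 and 8.16 in WT and 8.07, 7.97 and 7.94 in KO (0.832-fold, limma adjusted p = 1.0). Katna1 was 1 of 6 of the 101 genes whose groups did not overlap, beside 4.61% of all genes. The others were Cct5, Cct8, Sirt2, Dclk1 and Mapre1.

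Of 22 genes for the folding of tubulin, 17 had a lower mean in KO (median log2 difference -0.10), and 10 of 22 did over the 4 arrays with a low Xist signal (median 0.0082). KO replicate 3 was the lowest array for 12 of the 22, compared with 16.9% of all genes. Tbcb, a cofactor that binds alpha-tubulin, was at 7.47 in KO replicate 3 and between 8.0 and 8.23 on the other arrays, so it was lowest in the same array as Tuba1a. Cct8 and Cct5, subunits of the chaperonin that folds tubulin and actin, differed by -0.14 and -0.10. Of 20 genes that modify tubulin, such as the enzymes that add or remove tyrosine, glutamate and acetyl groups, 14 had a higher mean (median 0.05). Over the 4 arrays with a low Xist signal 16 of the 20 did (median 0.13). Sirt2, a deacetylase of tubulin and other proteins, was at 9.19, 9.43 and 9.41 in WT and 9.54, 9.56 and 9.55 in KO, so that all KO values lay above the WT values. Its difference was 0.21 (limma unadjusted p = 0.0731, adjusted p = 1.0). Agbl3 and Agbl5, which trim tubulin tails, differed by 0.11 and 0.16.

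Of 25 genes that bind microtubules, 14 were higher and 11 lower in KO (median log2 difference 0.0049). Dclk1, a doublecortin-like kinase, differed by -0.25, the tubulin-sequestering gene Stmn1 by -0.22 and the plus-end gene Mapre1 by -0.11. Of 16 genes of motors and severing enzymes 11 were higher (median 0.01), with the kinesin gene Kif5a at 0.13 and the dynactin gene Dctn1 at -0.05. Of 9 genes of microtubule nucleation 6 were higher (median 0.02), with Tubgcp6, Tubgcp2 and Nedd1 at -0.07, -0.07 and -0.05.

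The genes with profiles most like those of the 3 tubulin genes that ranged over more than 1 log2 unit were listed by the root mean square difference over the 6 arrays, after subtraction of each gene's mean. For Tuba1a they were Gamt (0.23), which makes creatine, Igfbp2 (0.24), Dtl (0.25), H2ac4 (0.25) and Trim29 (0.26). Gamt was at 7.99 in KO replicate 3 and 8.77 to 9.24 on the other arrays. For Tuba8 they were Mmp3 (0.10), a matrix metalloproteinase, the fatty acid elongase Elovl3 (0.12) and Lmod2 (0.16), an actin-binding protein of striated muscle. For Tubb2b they were Liph (0.06), Tex15 (0.19) and Fbxl22 (0.20). H2ac4, at 2.64 to 3.87, and Tex15, at 3.51 to 4.43, were about as dim as Tubb3 or dimmer. Whether they lay above background could not be judged. The nearest of 19937 genes were taken over 6 arrays that share their tissue make-up, so the likeness is a description.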

How the data were processed

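The authors amplified RNA of 6 adipose tissue samples, hybridised it to Mouse Gene 1.0 ST arrays and deposited linear intensity values per probe set. Per the labels these intensities came from RMA (version not given), which includes background correction and quantile normalization. The genome build of the array annotation was not given in the sources used here. After log2 transformation, a limma 3.58.1 model (lmFit and eBayes in R 4.3.3, no covariates) gave KO minus WT, with Benjamini-Hochberg adjustment over all 34760 probe sets. Of these, 21640 carry 1 gene symbol, 1321 several, and 11799 are not listed. Symbols were checked through the mouse RefSeq table, which matched 21553 and changed 0. The study's legend gives 3 mice per genotype, and p-values measure the spread between these samples.

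The tubulin genes, the 6 microtubule lists and the 13 marker lists (105 genes, 99 measured) were chosen with earlier results of these arrays known. The genes named are the tubulins, up to 3 per microtubule list with the smallest unadjusted p, the nearest profiles by the rule given in the text, and markers. Other names, such as those of genes whose groups did not overlap, were chosen after the values were seen. As alternatives, the Student test of the methods was run on log2 and on linear values; the values were quantile normalized again or centred on each array's median; dim probe sets were dropped; the variance was modelled with trend and robust fitting; arrays were weighted; the replicate number entered as a block; the 2 arrays with a high Xist signal got a term or were removed; all probe sets of each gene were averaged; and each array was left out in turn. The procedure was tested on simulated data.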

Additional observations from a re-analysis of the deposited data

How the results depend on the processing

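None of the 7 tubulin genes tested (Tuba1a was left out) and no other microtubule gene passed the adjusted p under any alternative run. The number of all probe sets that passed was 2 in the main fit. It went to 0 with the methods' t-test on log2 or on linear values and with the replicate block. It was also 0 without the 2 arrays with a high Xist signal. In each of these runs cavin-3 itself, the deleted gene, did not pass. The number was 1 when all probe sets of each gene were averaged, and 1 to 2 without single arrays. The replicate numbers did not pair the arrays: the deviations of same-numbered arrays from their group means correlated at -0.24, -0.50 and -0.04 across 19937 genes. Across numbers the values were 0.71 for WT 1 with KO 2, 0.61 for WT 2 with KO 3 and 0.51 for WT 3 with KO 1. The remaining pairs ran from -0.48 to -0.14. In this balanced design the block cannot move a difference.

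Without the 2 arrays with a high Xist signal the sign turned for Tuba1a (0.051), Tubb5 (0.087), Tubb6 (0.072) and the shared probe sets 10399419 (0.14), 10432398 (0.043), 10480628 (0.19), 10519488 (0.20), 10587780 (0.018) and 10592058 (0.17), and array weights turned 10399419 (0.0035). Without single arrays the log2 differences ran from -0.30 to 0.71 for Tuba8, -0.27 to 0.029 for Tubb5, -0.65 to 0.093 for Tubb2b, -0.38 to 0.0072 for 10399419, -0.34 to 0.0030 for 10432398, -0.59 to 0.038 for 10480628, -0.36 to 0.041 for 10519488 and -0.27 to 0.063 for 10592058. Those of Tuba1a ran from -0.77 without KO replicate 2 to -0.16 without KO replicate 3, and array weights gave -0.32, so removing both high-Xist arrays moved it most. The number of tubulin genes whose groups did not overlap was 0 to 3 without single arrays: Tuba1a and Tubb3 without WT replicate 1 (beside 13.6% of all genes) and Tubb2a, Tubb2b and Tubb6 without KO replicate 2 (13.2%). The order of signals kept 6 to 8 of the 8 places without single arrays, and 6 without KO replicate 3. Tubb3 was not tested with the filter on dim probe sets. The causes of these shifts were not tested.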
